A study of Mus musculus with 4 samples.

Results

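B cells were described from single-cell RNA sequencing of CD45+ leukocytes sorted from transplanted mouse lungs, and they were chosen by their own transcripts. A barcode was kept when it had at least 200 detected genes and at most 10% of its UMIs from mitochondrial genes (a UMI, unique molecular identifier, counts 1 captured transcript). A kept barcode was called a B cell when Cd79a, Cd79b and Ms4a1 summed to at least 3 UMIs with at least 1 from Cd79a, and when Cd3e, Cd3d and Ncr1 had no UMI. Jchain also had to stay under 20 UMIs, and S100a8 and S100a9 under 1% of the cell's UMIs. This rule gave 2436 B cells of 24291 kept barcodes, which is 10.0%, out of 24761 barcodes deposited. The UMIs of these genes chose the cells, so their levels are given as a description and support nothing.

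The 4 groups were leukocytes of the recipient and of the donor from RvD1-treated transplants, and the same from vehicle-treated transplants. Resolvin D1 (RvD1) is a lipid mediator made from docosahexaenoic acid and known for limiting inflammation. It was given intravenously just before transplantation, 200 ng to a mouse in 200 µL of 1% ethanol. The treatment label names the recipient mouse as the treated one, while the design text names the graft. All groups shared the operation: a B6 left lung was kept at 4 °C for 60 min, then at 28 °C for 45 min, transplanted into a syngeneic recipient and collected 2 h after reperfusion. Each group was 1 library of 2 pooled lungs. The genotype is labelled NA, and how donor and recipient cells were told apart, the age and the sex are not given in the sources used here. With 1 library a group, a difference between groups has no replicate check and carries no p-value. Its 95% intervals cover counting error only.

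B cells recognise antigen through a membrane immunoglobulin held by the signalling pair CD79A and CD79B. A mature naive follicular B cell carries this receptor as IgM and IgD together and circulates between blood, lymph nodes and spleen. Marginal zone, B-1, memory and switched B cells carry little or no IgD. The transcription factor EBF1 sets up this identity and activates Cd79a. In the lung, B cells are found in the vessels and in the tissue.

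The Cd79a promoter is shown because its gene defines the population and because a classical EBF1 site stands in it, in capitals. The sequence comes from RefSeq (GRCm38.p6, chr7:24897247-24897380, plus strand) and ends at the annotated gene start.
Cd79a promoter: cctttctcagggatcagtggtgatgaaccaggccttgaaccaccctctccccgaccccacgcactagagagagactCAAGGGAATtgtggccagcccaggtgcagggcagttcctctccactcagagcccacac
The 9 letters CAAGGGAAT, searched on both strands, were found in 80 of 32851 RefSeq promoter windows of 300 bases (0.243%). This is a description of letters and not of binding.

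The libraries held 42199775 to 61294707 UMIs in all, and their B cells 1970546 to 5139085. The median B cell had 4683.5 UMIs in the RvD1 recipient library, 6221.5 in the RvD1 donor library, 5580 in the vehicle recipient library and 6628 in the vehicle donor library. Ribosomal protein genes held 26.02% and 27.9% of the B cell UMIs in the RvD1 recipient and donor libraries, against 24.2% and 19.6% in the vehicle recipient and donor libraries. Per the file headers, Cell Ranger 7.0.1 made the RvD1 matrices and Cell Ranger 6.1.1 the vehicle matrices. A difference between RvD1 and vehicle that both recipient and donor cells show therefore cannot be told apart from a difference between the software versions. Pairs of libraries shared 4 to 15 barcodes, and 1 B cell barcode was shared, between both recipient libraries.

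The markers that the rule did not use matched the label. Ebf1, on chromosome 11 (chr11:44617317-45008091, GRCm38), was detected in 98.9% and 99.2% of B cells of the RvD1 recipient and donor libraries and in 99.8% and 99.5% of those of the vehicle recipient and donor libraries. It was detected in 0.484% to 1.25% of T cells, which had at least 2 UMIs of Cd3e, Cd3d and Cd3g and none of the B cell genes. These 4492 T cells were the deeper cells, with medians of 7627 to 9634.5 UMIs. Pax5, which keeps a cell committed to the B lineage, was found in 70.3% to 85.2% of B cells and in at most 0.484% of T cells. Bank1, a scaffold of antigen receptor signalling, was found in 92.6% to 95.2%.

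At the edge of the rule, Ebf1 was found in 90.9% of 11, 100% of 1, 100% of 15 and 100% of 12 cells with a marker sum of 3 UMIs in the RvD1 recipient, RvD1 donor, vehicle recipient and vehicle donor libraries. Just outside it, at a sum of 2, Ebf1 was found in 80.0% of 10, 100% of 1, 94.1% of 17 and 50% of 6 cells in the same order. A further 101, 27, 63 and 25 barcodes reached the marker sum and were left out by another clause.

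B cells made up a larger share of recipient than of donor leukocytes. They were 906 of 7623 kept barcodes (11.9%, exact 95% interval 11.2 to 12.6) in the RvD1 recipient library, against 252 of 5092 (4.95%, 4.37 to 5.58) in the RvD1 donor library. With vehicle they were 839 of 5918 (14.2%, 13.3 to 15.1) in the recipient library, against 439 of 5658 (7.76%, 7.07 to 8.49) in the donor library. Thinning every cell to 1000 UMIs and applying the rule again gave 6.30% and 2.32% in RvD1 recipient and donor cells, and 6.45% and 3.06% in vehicle recipient and donor cells. The recipient share stayed above the donor share, while the intervals of the RvD1 and vehicle shares then overlapped, in recipient cells and in donor cells. A share also depends on every other sorted cell type, so these values do not count B cells per lung.

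**Figure D1:**
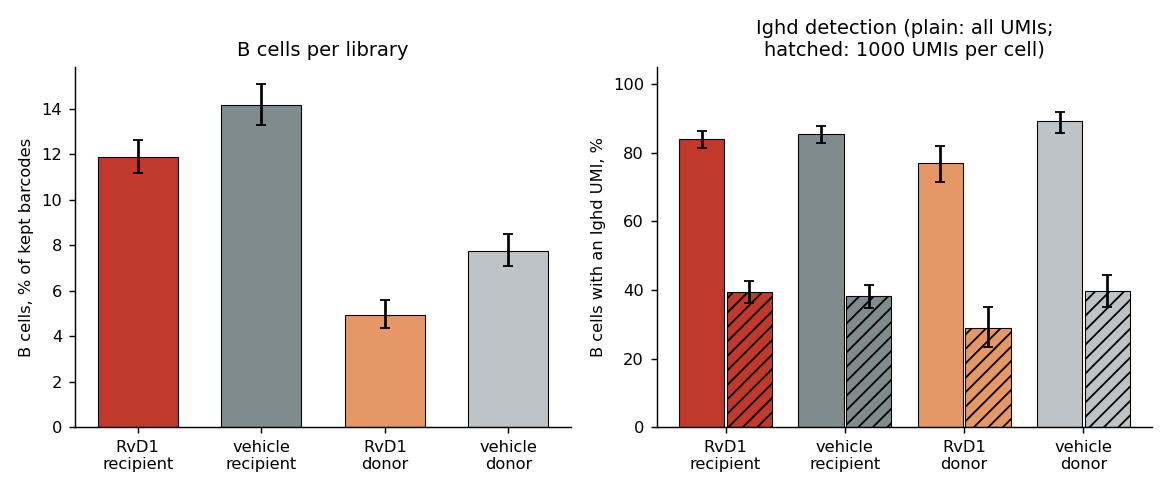
B cells as a percentage of kept barcodes (left) and B cells with at least 1 Ighd UMI as a percentage of B cells (right), per library, with exact 95% intervals. Plain bars use all UMIs and hatched bars 1000 UMIs per cell. Recipient bars stand at 11.9% and 14.2% and donor bars at 4.95% and 7.76%, and the RvD1 donor bar is the lowest for Ighd.

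Most B cells transcribed IgD. At least 1 UMI of Ighd, the IgD heavy chain gene (chr12:113406604-113416324, minus strand), was found in 760 of 906 B cells of the RvD1 recipient library (83.9%, exact 95% interval 81.3 to 86.2). It was found in 194 of 252 of the RvD1 donor library (77.0%, 71.3 to 82.0). With vehicle it was found in 716 of 839 recipient B cells (85.3%, 82.8 to 87.7) and in 391 of 439 donor B cells (89.1%, 85.8 to 91.8). The RvD1 donor library was the lowest and the vehicle donor library the highest. In T cells the share was 0.363% to 0.700%.

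At equal depth the RvD1 donor library still had the lowest share. With 2000 UMIs drawn from each cell, an Ighd UMI was expected in 60.8% of RvD1 recipient and 45.8% of RvD1 donor B cells, against 58.7% of vehicle recipient and 60.2% of vehicle donor B cells. The intervals of the other libraries did not reach that of the RvD1 donor library, 39.5 to 52.2. With 1000 UMIs it was expected in 39.4% of RvD1 recipient and 29.0% of RvD1 donor B cells, against 38.1% of vehicle recipient and 39.7% of vehicle donor B cells. There the intervals of the RvD1 donor (23.4 to 35.0) and vehicle recipient libraries (34.8 to 41.5) overlapped. The Ighd level was 516.8 CPM (the UMIs of a gene over all B cell UMIs of the library, scaled to a common total) in RvD1 recipient and 332.4 CPM in RvD1 donor B cells, against 527.9 CPM in vehicle recipient and 512.8 CPM in vehicle donor B cells.

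Switched immunoglobulin was rare, and most frequent in the RvD1 donor library. Ighm, the IgM heavy chain gene (chr12:113418558-113422730, minus strand), was found in 93.4% to 96.8% of B cells, against 14.5% to 21.6% of T cells, which should lack it. A UMI of any IgG, IgA or IgE gene was found in 19 RvD1 recipient B cells (2.10%, 1.27 to 3.26) and in 21 RvD1 donor B cells (8.33%, 5.23 to 12.5). With vehicle it was found in 2 recipient B cells (0.238%, 0.0289 to 0.858) and in 7 donor B cells (1.59%, 0.643 to 3.26). The T cell shares were 0.325% and 2.06% in the RvD1 recipient and donor libraries and 0 of 821 cells, which at a floor of 3 counts allows a share of up to 0.365%, and 0.800% in the vehicle recipient and donor libraries. At least 10 switched UMIs were found in 2, 1, 0 and 2 B cells of the RvD1 recipient, RvD1 donor, vehicle recipient and vehicle donor libraries.

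By isotype, Igha (IgA) had 17 and 22 UMIs in the RvD1 recipient and donor B cells, against 2 and 3 in the vehicle recipient and donor B cells. Ighg2b had 31 and 19 UMIs with RvD1, against 0 and 1 with vehicle, for recipient and donor cells. In the RvD1 recipient, RvD1 donor, vehicle recipient and vehicle donor libraries, Ighg1 had 13, 0, 0 and 21 UMIs and Ighg3 6, 6, 0 and 36. Ighg2c had 2, 17, 0 and 0 in the same order, the 17 in 7 cells. Ighe had 1 UMI, in vehicle donor B cells. Sums of this size rest on a handful of cells.

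Cells whose light chain UMIs were mainly lambda made up 4.86% and 5.95% of RvD1 recipient and donor B cells, against 5.24% and 6.83% of vehicle recipient and donor B cells. The intervals of all 4 libraries overlapped. The kappa gene Igkc stood at 4561 CPM and 3567 CPM in RvD1 recipient and donor B cells, against 3057 CPM and 2938 CPM in vehicle recipient and donor B cells. The log2 ratio of RvD1 over vehicle was 0.58 in recipient and 0.28 in donor cells. Iglc1, a lambda constant region, stood at 185.9 and 164.4 CPM with RvD1 in recipient and donor cells, against 94.2 and 115.7 CPM with vehicle. Iglc2 had a ratio of 0.77 in recipient and -0.27 in donor cells, so the light chain genes pointed different ways in donor cells.

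Of the receptors known for RvD1 and its relatives, B cells carried Gpr18 and almost none of the others. Gpr18, which encodes a receptor for resolvin D2, stood at 92.6 and 73.6 CPM in RvD1 recipient and donor B cells, against 93.0 and 80.0 CPM in vehicle recipient and donor B cells. It was detected in 34.4% to 41.7% of B cells and in 38.01% to 67.0% of T cells, so it did not set B cells apart. The log2 ratio of RvD1 over vehicle was -0.01 (95% interval -0.20 to 0.19) in recipient and -0.12 (-0.42 to 0.18) in donor cells, so a ratio past 1.5-fold lay outside both intervals. Fpr2, which encodes the RvD1 receptor ALX/FPR2, had 6, 6, 8 and 13 UMIs over all B cells of the RvD1 recipient, RvD1 donor, vehicle recipient and vehicle donor libraries. Fpr2 was found in 0.552% to 1.59% of B cells, below the 2.18% to 4.87% of T cells. The T cells were deeper, and their gate set no limit on S100a8 and S100a9. In the RvD1 recipient library S100a8 stood at 98.7 CPM in B cells and 1540 CPM in T cells. The Fpr2 shares of B and T cells are therefore not like for like. Cmklr1, the receptor of chemerin and resolvin E1, had 7, 4, 5 and 8 UMIs in the same order.

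Transcripts of other lineages were present in some of the B cells. The 10 monocyte and macrophage markers summed to 485 and 643 CPM in RvD1 recipient and donor B cells, against 149 and 543 CPM in vehicle recipient and donor B cells, and any of them was found in 15.3% to 33.7% of cells. The 10 neutrophil markers summed to 303 and 138 CPM with RvD1, against 298 and 351 CPM with vehicle, for recipient and donor cells. The rule itself limited S100a8 and S100a9, which held 459 and 662 of the 1410 UMIs of this sum in the RvD1 recipient library. In the vehicle donor library 1 cell held 25.7% of the sum. The 10 T cell markers stayed between 8.76 and 17.8 CPM and the 8 NK cell markers between 4.06 and 55.4 CPM, with Cd3d, Cd3e and Ncr1 at 0 by the rule. Dendritic cell markers summed to 24.9 to 103 CPM. The plasmacytoid gene Siglech was at 0 in both RvD1 libraries. It had 41 and 24 UMIs in the vehicle recipient and donor libraries, all of them in 1 cell of each library. Doublets, cells captured together, were called by Scrublet in 1.49% to 3.35% of kept barcodes and in 9, 2, 4 and 9 of the B cells of the RvD1 recipient, RvD1 donor, vehicle recipient and vehicle donor libraries. All were kept. Values without cells carrying other lineages' UMIs are given beside the genes named below whose call in the Ighd comparison they end or make, and beside some library ratios. They leave out only cells with a UMI of Trac, Trbc1, Trbc2, Cd3g, Nkg7, Lyz2 or Csf1r. Neutrophil and dendritic cell markers were not used for this. Any neutrophil marker was found in 44.4% to 76.2% of all B cells, so such UMIs remain.

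B cells with an Ighd UMI were next compared with B cells without one, inside every library. The 2061 cells with Ighd and the 375 without it were summed per library, which gave 8 sums, and edgeR's quasi-likelihood test with the library as a block compared the classes. Of 8226 genes tested, 29 (0.353%) were higher and 47 (0.571%) lower in cells with Ighd at an adjusted p under 0.05. Ighd itself was not tested, since it made the classes. Median depth was close: cells with Ighd had 4744.5, 6359, 5660 and 6667 UMIs, and cells without it 4396.5, 6184.5, 5095 and 6385 UMIs, in the RvD1 recipient, RvD1 donor, vehicle recipient and vehicle donor libraries. The p-values measure how the difference between the classes varied over 4 libraries. These libraries differ in treatment and origin, and each pools its animals.

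Among the follicular B cell genes, 2 of 10 tested rose in cells with Ighd, Lef1 among them, and none fell. Lef1 (chr3:131110471-131224356), a transcription factor of the Wnt pathway used in early B cells, stood at 37.99, 9.70, 41.6 and 41.2 CPM in cells with Ighd, against 10.96, 4.71, 11.3 and 14.0 CPM in cells without it (RvD1 recipient, RvD1 donor, vehicle recipient, vehicle donor). It was higher in cells with Ighd in all 4 libraries, and the RvD1 donor library was low in both classes. The log2 fold change was 1.64 ± 0.28 (SE, edgeR adjusted p = 0.0133). Cells without Ighd had only 8, 2, 7 and 5 UMIs of Lef1 in the same order. Lef1 therefore entered the test mainly through cells with Ighd. Fcer2a, the follicular marker CD23, was higher in cells with Ighd in 4 of 4 libraries and missed the threshold (0.67 ± 0.16, edgeR adjusted p = 0.0544).

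Of the 24 B cell transcription factor genes tested, 3 rose and none fell. They were Mef2c, Bach2 and Foxp1, with log2 fold changes of 0.36 ± 0.07, 0.33 ± 0.06 and 0.32 ± 0.07 (SE, edgeR adjusted p = 0.0231, 0.0207 and 0.0266). Bach2 holds back plasma cell differentiation, Foxp1 is needed by mature follicular B cells and Mef2c takes part in antigen receptor responses. Bhlhe41, a factor of B-1 cells, was at -1.08 ± 0.32 and Irf4, which drives plasma cell fate, at -0.59 ± 0.16, and neither passed the test (edgeR adjusted p = 0.139 and 0.101).

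Outside the lists, the ligase gene March1, whose product removes MHC class II and CD86 from the surface, rose in cells with Ighd. It stood at 175, 190, 164 and 239 CPM in cells with Ighd, against 90.4, 132, 85.4 and 72.9 CPM in cells without it (libraries in the order above). Its log2 fold change was 0.93 ± 0.15 (edgeR adjusted p = 0.0133). Cd86, the costimulatory ligand, fell: 441, 550, 742 and 636 CPM in cells with Ighd, against 509, 636, 831 and 897 CPM in cells without it. Its log2 fold change was -0.33 ± 0.08 (edgeR adjusted p = 0.0453). Cd74, the invariant chain of MHC class II, fell by 0.15 on the log2 scale (SE 0.03, edgeR adjusted p = 0.0174), and was at -0.10 without cells carrying other lineages' UMIs (edgeR adjusted p = 0.0963). Cd86 and Cd74 were the 2 of 13 MHC class II presentation genes that passed, both lower, and 4 of the 13 had a positive fold change.

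Further genes of varied roles also rose. Btla, an inhibitory receptor, stood at 218, 208, 136 and 197 CPM in cells with Ighd, against 162, 94.2, 95.1 and 78.5 CPM in cells without it, a log2 fold change of 0.72 ± 0.14 (edgeR adjusted p = 0.0231). Pecam1, an adhesion and inhibitory receptor that also stood among the endothelial markers, had 0.66 ± 0.12 (edgeR adjusted p = 0.0136). Arid5b, a chromatin factor, had 0.61 ± 0.10 (edgeR adjusted p = 0.0133), and Ccnd3, the D-type cyclin of B cells, 0.61 ± 0.14 (edgeR adjusted p = 0.0423). Fchsd2, an endocytosis gene, had 0.78 ± 0.13 (edgeR adjusted p = 0.0133). Ssbp2, a cofactor of LIM-domain transcription, had 0.83 ± 0.19 (edgeR adjusted p = 0.0394), and 0.74 without cells carrying other lineages' UMIs (edgeR adjusted p = 0.0782). All were higher in cells with Ighd in 4 of 4 libraries. Sgk1, a kinase, Slc8a1, a sodium and calcium exchanger, and Gda, a guanine deaminase, were past the threshold on few UMIs. Cells without Ighd had 6, 1, 2 and 3 UMIs of Sgk1, 15, 2, 3 and 0 of Slc8a1 and 17, 6, 1 and 5 of Gda in the RvD1 recipient, RvD1 donor, vehicle recipient and vehicle donor libraries. These genes entered the test through the class where they were high, and without cells carrying other lineages' UMIs they were not tested.

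Lower in cells with Ighd were Fcrl5, Ifi30 and Ankrd33b. Fcrl5 (chr3:87435773-87500678), an Fc receptor-like molecule that marks marginal zone and B-1 cells in mice, stood at 49.7, 78.3, 22.1 and 48.1 CPM in cells with Ighd, against 68.5, 163, 37.1 and 140 CPM in cells without it. It was lower in every library, with a log2 fold change of -1.02 ± 0.17 (edgeR adjusted p = 0.0133). Ifi30, the thiol reductase that unfolds antigen in lysosomes, stood at 158, 276, 133 and 225 CPM, against 271, 476, 148 and 375 CPM without Ighd. Its log2 fold change was -0.69 ± 0.11 (edgeR adjusted p = 0.0133). Ankrd33b had -0.81 ± 0.13 (edgeR adjusted p = 0.0133) and Atxn1, a transcriptional repressor, -0.78 ± 0.16 (edgeR adjusted p = 0.0302). Atxn1 was at -0.59 without cells carrying other lineages' UMIs (edgeR adjusted p = 0.197). Slc7a11, the cystine transporter, had -1.76 ± 0.36 (edgeR adjusted p = 0.0237), and 1 cell held 90.6% and 98.6% of its UMIs in RvD1 donor and vehicle donor cells without Ighd. Of 8 marginal zone genes tested, Fcrl5 fell and Cd36, a scavenger receptor that monocytes carry too, rose (1.14 ± 0.26, edgeR adjusted p = 0.0453). Cd36 was at 0.63 without cells carrying other lineages' UMIs (edgeR adjusted p = 0.634). Cells without Ighd had only 10, 7, 5 and 11 UMIs of Cd36 in the RvD1 recipient, RvD1 donor, vehicle recipient and vehicle donor libraries, the 11 all in 1 cell. In cells with Ighd 1 cell held 46.3%, 59.4%, 49.6% and 29.8% of them. Cd36 therefore entered the test mainly through cells with Ighd.

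None of the 18 B-1 and memory-like genes passed, and 4 of them had a positive fold change, with a median of -0.13, against a median of -0.0047 over all genes. S100a6 was at -1.18 ± 0.34 (edgeR adjusted p = 0.130) and Plscr1 at -0.80 ± 0.21 (edgeR adjusted p = 0.0999). Both were, without cells carrying other lineages' UMIs, past the threshold, S100a6 at -1.85 and Plscr1 at -0.96 (edgeR adjusted p = 0.0114 and 0.0447). Over all B cells without Ighd, 1 cell held 55.1% and 83.6% of the S100a6 UMIs in the RvD1 recipient and vehicle donor libraries. In the RvD1 donor library S100a6 went the other way, with a log2 ratio of 1.05. Of 12 heat shock chaperones, Hsp90ab1 fell (-0.38 ± 0.08, edgeR adjusted p = 0.0231) and none had a positive fold change. Of 21 immediate early genes, 2 had a positive fold change and none passed. Fos (-0.79) and Nr4a1 (-0.47) were past the threshold without cells carrying other lineages' UMIs (edgeR adjusted p = 0.0243 and 0.0438), and so was the lambda gene Iglc1 (-0.76, edgeR adjusted p = 0.0212). None of the 26 antigen receptor signalling genes passed, and 13 of them were above 0. Ighm was at 0.13 ± 0.10 (edgeR adjusted p = 0.711).

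The genes that fell were mainly ribosomal. Of the 47, 29 encode ribosomal proteins, with log2 fold changes of -0.22 to -0.14, and all 81 ribosomal protein genes tested were below 0. Ribosomal protein genes held 25.8%, 27.3%, 24.0% and 19.4% of the UMIs of cells with Ighd, against 27.0%, 29.9%, 25.8% and 20.9% in cells without it (libraries in the order above). Npm1 and Ncl, which serve ribosome assembly in the nucleolus, fell as well, with -0.45 ± 0.10 and -0.32 ± 0.08 (SE, edgeR adjusted p = 0.0391 and 0.0496).

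Some of the genes that rose belong to myeloid or T cells. The monocyte list had 2 of 7 tested genes higher, Lyz2 and Fcer1g, and all 7 above 0. Adgre1, Csf1r and Mrc1 of this list were not tested. Cells without Ighd had 179, 10, 2 and 7 UMIs of Lyz2 and 56, 5, 4 and 13 of Fcer1g (libraries in the order above). In the RvD1 recipient library 1 cell held 91.1% of the 179. Both genes entered the test mainly through cells with Ighd, so their rise supports nothing further. The 10 monocyte and macrophage markers summed to 485, 807, 166 and 596 CPM in cells with Ighd, against 488, 47.1, 24.2 and 92.5 CPM in cells without it, so 3 of 4 libraries carried more of them with Ighd. Without cells carrying other lineages' UMIs, Fcer1g was at 0.11, Tyrobp at 0.02 and Cst3 at -0.17 (edgeR adjusted p = 0.970, 0.986 and 0.711). Lef1 was then at 1.53, March1 at 0.95 and Fcrl5 at -0.82. Ccl5, a T and NK cell chemokine, had the largest fold change among the genes past the test (2.03 ± 0.34, edgeR adjusted p = 0.0133), and 1 cell held 60.8% and 63.3% of its UMIs in the vehicle recipient and donor cells with Ighd. Cells without Ighd had 13, 3, 4 and 6 of its UMIs (libraries in the order above).

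The calls changed with the libraries and cells used. Without the vehicle recipient library 0 genes were higher and 1 lower, and without the vehicle donor library 11 were higher, none of them among the 29, and 0 lower, while 325 and 321 higher and 381 and 339 lower genes had an unadjusted p under 0.05 in these fits. Leaving out the RvD1 recipient library gave 50 higher and 44 lower, and leaving out the RvD1 donor library 18 higher and 53 lower. Without cells carrying other lineages' UMIs 20 were higher and 30 lower, and 14 of the 29 and 17 of the 47 were among them. With every cell thinned to 1000 UMIs, or without the library block, edgeR called no gene. An unadjusted p under 0.05 was found for 118 higher and 136 lower of 4423 genes (thinned). Without the block it was found for 216 higher and 140 lower of 8226 genes. When nothing differs, a share of 0.05 of genes falls under this threshold on average. The unadjusted counts given here are therefore not calls. Thinning also redrew the classes, to 376 RvD1 recipient cells with Ighd and 530 without it, for example, and left 4423 genes tested. DESeq2 on the same sums called 19 higher and 60 lower.

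**Figure D2:**
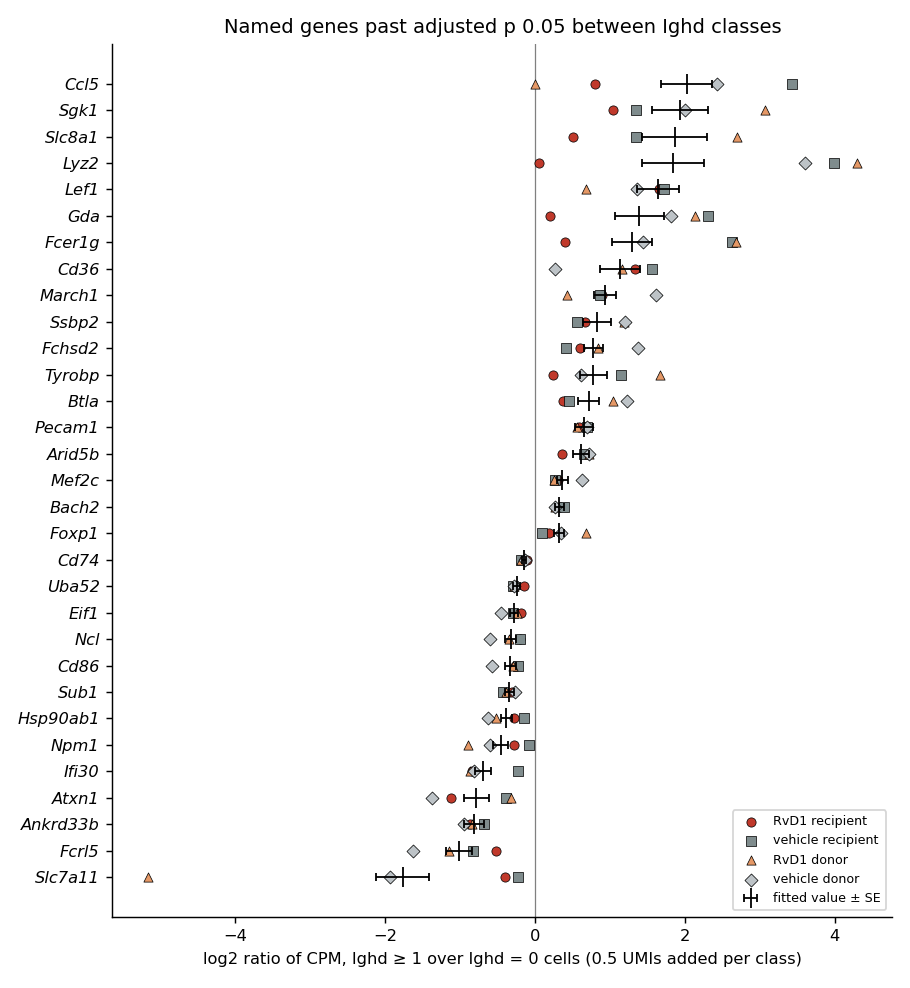
Log2 ratio of CPM in B cells with Ighd over B cells without it, for the named genes past an edgeR adjusted p of 0.05, with 1 marker per library (0.5 UMIs added to each class) and the fitted value ± SE as a cross. No marker is drawn for a library with 0 UMIs in a class. Markers of Lef1, March1 and Btla all lie right of 0 and those of Fcrl5, Ankrd33b and Ifi30 all left of it.

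RvD1 was next set over vehicle, in recipient and in donor B cells. Genes were described when both library pairs had at least 100 UMIs, which left 6305. With RvD1, 10 of them (0.159%) reached a 2-fold higher level in both recipient and donor cells, and 3 (0.0476%) a 2-fold lower level. At 1.5-fold, 51 (0.809%) were higher and 84 (1.33%) lower in both. The median log2 ratio of all genes was -0.10 in recipient and -0.23 in donor cells, so a gene near these values sat with the bulk. Donor ratios were wider, with 50 genes 2-fold higher and 180 lower, against 45 higher and 13 lower in recipient cells.

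The higher genes included an enzyme, a membrane receptor and linker histones. Ddah1 (chr3:145758675-145894277), which breaks down the nitric oxide synthase inhibitor dimethylarginine, stood at 59.1 and 54.8 CPM in RvD1 recipient and donor B cells, against 24.5 and 16.4 CPM in vehicle recipient and donor B cells. Both RvD1 libraries were above both vehicle libraries. The log2 ratio was 1.27 (95% interval 0.96 to 1.59) in recipient and 1.74 (1.26 to 2.23) in donor cells. Plxdc2 (chr2:16356304-16755839), a transmembrane protein, stood at 59.3 and 36.5 CPM with RvD1, against 13.8 and 17.9 CPM with vehicle, in recipient and donor cells. Its ratios were 2.10 (1.72 to 2.50) and 1.03 (0.52 to 1.55).

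Hist1h1d, a linker histone that packs nucleosomes, stood at 87.9 and 52.3 CPM in RvD1 recipient and donor B cells, against 36.0 and 25.5 CPM in vehicle recipient and donor B cells, with ratios of 1.29 and 1.04. Hist1h1b, another, had 1.19 and 2.21, and 1 cell held 61.4% of its UMIs in the RvD1 donor library (1.21 and 1.33 without the top cell of each library). Hist1h1c, also a linker histone, stood at 202.7 and 128.4 CPM with RvD1, against 107.8 and 71.8 CPM with vehicle, in recipient and donor cells, with ratios of 0.91 and 0.84. Ier3, a stress-induced survival gene, had 1.15 and 1.33, and 0.69 and 0.20 without the top cell of each library. S100a4, a calcium-binding protein of activated and memory lymphocytes and of myeloid cells, had ratios of 1.92 and 1.23 and was found in 0.954% to 4.76% of B cells. Rpl10-ps3 and Rpl9-ps6, ribosomal pseudogenes, had ratios of 1.72 and 1.19, and of 1.03 and 1.12. Their sequences resemble the parent genes, so their counts are uncertain. Alox5ap, the partner of the leukotriene enzyme, had 1.03 and 0.99, and -0.92 and 0.48 without cells carrying other lineages' UMIs.

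Bcl2a1b and Bcl2a1d, survival genes of the BCL2 family that NF-kB induces, were the 2 of 18 NF-kB and survival genes at least 1.5-fold higher in both. Bcl2a1b stood at 67.9 and 139.6 CPM in RvD1 recipient and donor B cells, against 31.3 and 74.7 CPM in vehicle recipient and donor B cells. Its log2 ratios were 1.12 (0.84 to 1.40) and 0.90 (0.65 to 1.15). Bcl2a1d had 0.98 (0.59 to 1.37) and 1.10 (0.78 to 1.43). Without cells carrying other lineages' UMIs, Bcl2a1b had 1.20 and 1.77 and Bcl2a1d 1.08 and 1.93. The promoters are printed to show how alike these copies are, with the bases that differ from or are missing in the other copy in capitals (RefSeq, GRCm38.p6, chr9:89199023-89199164 on the plus strand and chr9:88731915-88732050 on the minus strand).
Bcl2a1b promoter: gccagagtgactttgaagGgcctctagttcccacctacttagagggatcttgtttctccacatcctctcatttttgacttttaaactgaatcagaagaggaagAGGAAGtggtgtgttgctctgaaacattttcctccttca
Bcl2a1d promoter: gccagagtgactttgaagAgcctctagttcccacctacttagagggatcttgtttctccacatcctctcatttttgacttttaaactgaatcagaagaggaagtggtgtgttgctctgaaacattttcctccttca
The annotated transcripts of both copies agreed at 810 of 817 aligned bases (99.1%), so the split of UMIs between them is uncertain.

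Chst11, Ubtd1 and Ccl5 were the 3 genes 2-fold lower with RvD1 in both pairs. Chst11, a chondroitin sulfotransferase, stood at 35.3 and 28.9 CPM in RvD1 recipient and donor B cells, against 73.9 and 100.8 CPM in vehicle recipient and donor B cells. Its log2 ratios were -1.07 (-1.34 to -0.80) and -1.80 (-2.23 to -1.39). Sfpq, a splicing factor of paraspeckles, stood at 160.8 and 153.8 CPM with RvD1, against 304.5 and 297.7 CPM with vehicle, in recipient and donor cells. Both pairs gave nearly the same ratio, -0.92 (-1.05 to -0.79) and -0.95 (-1.14 to -0.77).

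Btbd9 stood at 202.3 and 183.7 CPM in RvD1 recipient and donor B cells, against 358.2 and 390.0 CPM in vehicle recipient and donor B cells, and Tet3, a 5-methylcytosine oxidase, at 41.9 and 44.2 CPM, against 75.5 and 93.2 CPM. Ubtd1 had ratios of -1.23 and -1.01, Pde7b, a cyclic AMP phosphodiesterase, -0.91 and -1.17, Magi3 -0.88 and -0.999, Nr6a1 -0.86 and -1.69, and Atp8b4 -0.81 and -1.51. These values put all of them below the median of all genes in both pairs. Ccl5 had -1.23 and -3.53, and 0.67 and -0.93 without cells carrying other lineages' UMIs. In Ccl5, 1 cell held 60.1% and 62.1% of the UMIs of the vehicle recipient and donor B cells.

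Most B cell lists had few members past 1.5-fold in both pairs. Of 26 antigen receptor signalling genes described, Ifitm3 was higher and none lower, with medians of -0.02 in recipient and -0.24 in donor cells. Ifitm3, a membrane protein that also scaffolds B cell signalling, had ratios of 1.56 and 0.84. Its UMIs lay in few cells. Among B cells with Ighd it was found in 5.92%, 7.73%, 3.91% and 6.91% of the RvD1 recipient, RvD1 donor, vehicle recipient and vehicle donor cells. There 1 cell held 21.2%, 26.8%, 24.0% and 23.1% of its UMIs. In the Ighd comparison it was not tested without cells carrying other lineages' UMIs, and the part of other cells in its ratios was not tested. None of the 23 B cell transcription factors passed in both (medians -0.01 and -0.43), and Foxp1 had -0.27 and -0.54. None of the 11 follicular genes passed in both (medians -0.07 and -0.45). Of 7 marginal zone genes, Fcrl5 was higher: 52.7 and 96.4 CPM in RvD1 recipient and donor B cells, against 23.9 and 57.7 CPM in vehicle recipient and donor B cells, with ratios of 1.14 (0.82 to 1.46) and 0.74 (0.45 to 1.04). Mzb1, a chaperone of immunoglobulin assembly, had 0.55 and 0.81.

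Among the 17 homing receptors described, Cnr2 was lower and none higher. Cnr2, the cannabinoid receptor that retains marginal zone B cells, stood at 59.8 and 48.7 CPM in RvD1 recipient and donor B cells, against 96.3 and 105.5 CPM in vehicle recipient and donor B cells, with ratios of -0.69 and -1.11. None of the 12 MHC class II genes passed in both, with medians of 0.16 and 0.37. H2-DMa, a peptide exchange factor, had 0.23 in recipient and 0.88 in donor cells, and Cd86 had -0.74 and -0.22. Of 19 immediate early genes, Myc (0.73 and 0.97) and Fosb (0.67 and 0.97) were higher. None of the 10 interferon-stimulated and none of the 12 heat shock genes passed in both.

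Monocyte transcripts differed too: Lyz2 had ratios of 2.15 and 0.75, and Ccr2 of 2.09 and 0.71, 2 of the 4 monocyte markers described. Cells with a Lyz2 UMI count as carrying other lineages' UMIs, so Lyz2 has no ratio without such cells. Without them, Ccr2 had 2.04 and -2.19, Ddah1 1.32 and 1.98 and Plxdc2 2.04 and 1.11. Sfpq then had -0.92 and -1.15, Chst11 -1.06 and -1.82 and Fcrl5 1.11 and 1.84. Centring each pair on its median gene gave 16 higher and 1 lower gene at 2-fold in place of 10 and 3.

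**Figure D3:**
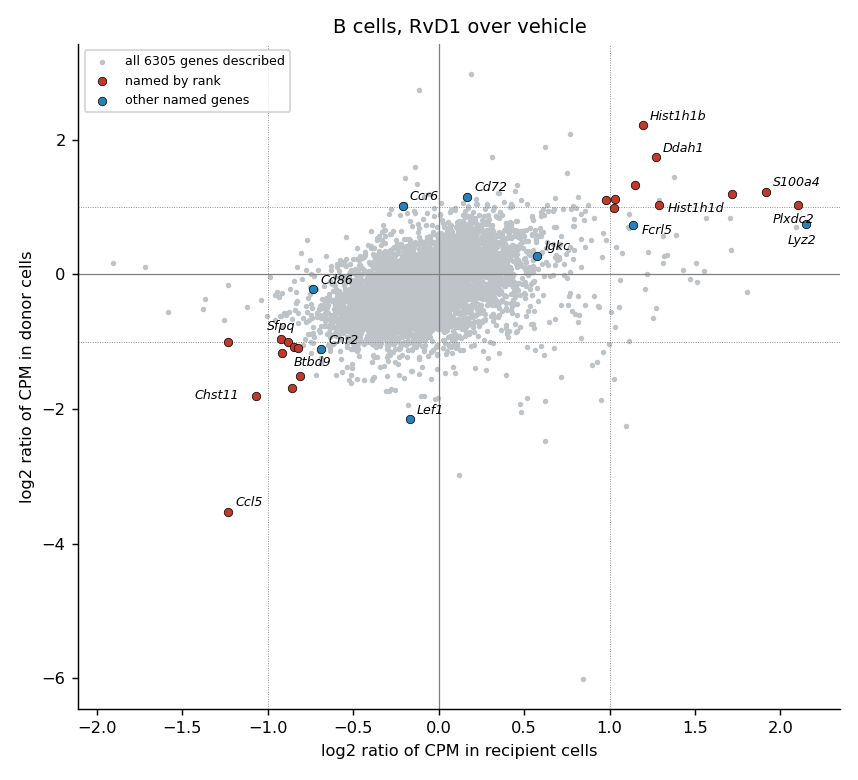
Log2 ratio of CPM, RvD1 over vehicle, in recipient (horizontal) and donor (vertical) B cells for 6305 genes. Grey points are all genes, red points the genes named by rank, blue points other named genes, and dotted lines mark 2-fold. Ddah1, Plxdc2 and S100a4 lie in the upper right, Chst11 and Sfpq in the lower left, and Lef1 lies low for donor cells while near 0 for recipient cells.

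The RvD1 donor B cells stood apart from the other 3 libraries in several lymphocyte genes. Lef1 stood at 8.63 CPM in RvD1 donor B cells, against 33.8, 37.9 and 38.4 CPM in the RvD1 recipient, vehicle recipient and vehicle donor libraries. Ltb, which encodes lymphotoxin beta for lymphoid tissue structure, stood at 160.4 CPM, against 296.2, 252.2 and 261.1 CPM in the same order. In these genes the RvD1 donor library was low and the other 3 were close to each other.

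Other genes were high in the RvD1 donor library. Ccr6, the receptor of CCL20 on mature and memory B cells, stood at 134.0 CPM, against 44.7, 51.8 and 65.9 CPM in the RvD1 recipient, vehicle recipient and vehicle donor libraries. Cd72, a co-receptor that dampens antigen signals, stood at 173.0 CPM, against 89.4, 79.8 and 77.6 CPM. Nt5e, the ectonucleotidase CD73, stood at 34.0 CPM, against 11.4, 13.0 and 12.6 CPM. The log2 ratios of RvD1 over vehicle in donor cells were -2.15 (-2.98 to -1.42) for Lef1, 1.02 (0.76 to 1.29) for Ccr6, 1.16 (0.92 to 1.39) for Cd72 and 1.43 (0.86 to 2.02) for Nt5e. In recipient cells they were -0.17, -0.21, 0.16 and -0.19 in the same gene order.

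Within donor cells with Ighd alone the RvD1 over vehicle ratios were -2.09 for Lef1, 1.12 for Ccr6, 1.18 for Cd72 and 0.84 for Nt5e. These values stood close to those over all donor B cells for the first 3. The library held the fewest B cells, 252 from 2 pooled lungs. The RvD1 recipient library stood near the vehicle libraries in these genes. The RvD1 and vehicle donor libraries also differed in software version. With 1 library a group, the treatment, the software version and the pooled animals cannot be told apart, and none of them was tested.

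**Figure D4:**
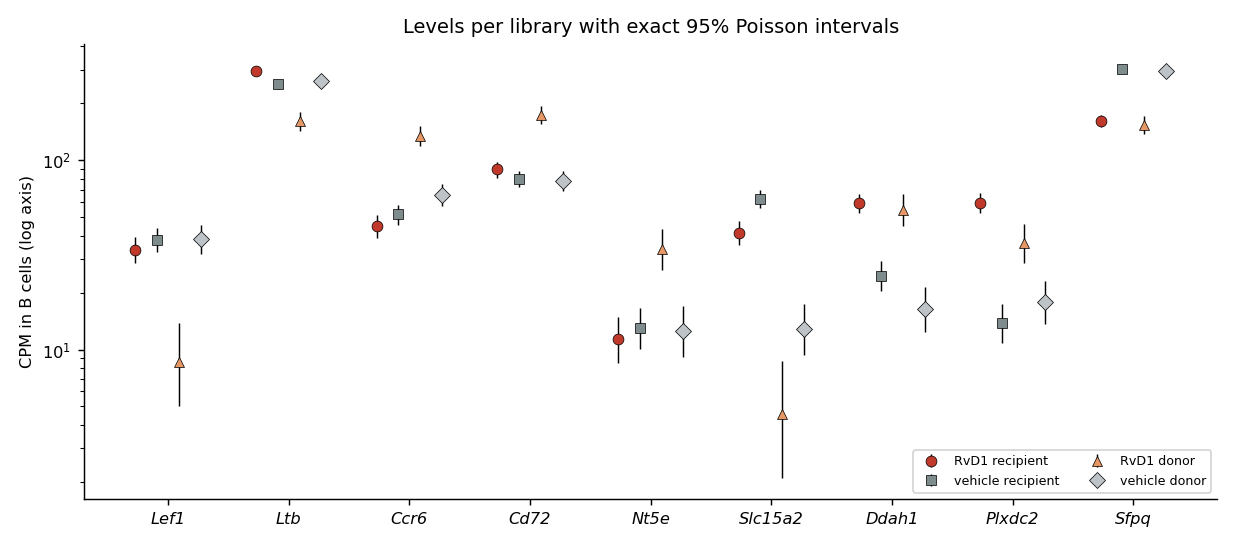
CPM in B cells of each library on a log axis for 9 named genes, with exact 95% Poisson intervals. The RvD1 donor triangle is lowest for Lef1 and Ltb and highest for Ccr6, Cd72 and Nt5e, and both recipient libraries are above both donor libraries for Slc15a2.

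Recipient B cells were last set over donor B cells, within RvD1 and within vehicle, which compares libraries counted with the same software version. Under both treatments, 2 of 6673 genes described (0.0300%) reached a 2-fold higher level in recipient cells, and 20 (0.300%) a 2-fold lower level. At 1.5-fold, 10 (0.150%) were higher and 80 (1.20%) lower. The median log2 ratio was 0.04 with RvD1 and -0.07 with vehicle.

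Slc15a2 and Ddx25 were the 2 higher genes. Slc15a2 (chr16:36750177-36784962, minus strand), a proton-coupled transporter of di- and tripeptides and of bacterial muropeptides, stood at 41.5 and 62.3 CPM in recipient B cells with RvD1 and vehicle, against 4.57 and 12.9 CPM in donor B cells with RvD1 and vehicle. It was detected in 12.4% and 19.5% of recipient B cells, against 3.17% and 6.15% of donor B cells, although donor cells were the deeper ones. The log2 ratio was 3.18 (2.23 to 4.33) with RvD1 and 2.27 (1.81 to 2.76) with vehicle, and 2.88 and 2.05 without cells carrying other lineages' UMIs. Ddx25 (chr9:35536647-35558528, minus strand), an RNA helicase studied in the testis, stood at 40.8 and 41.3 CPM in recipient cells, against 15.2 and 20.2 CPM in donor cells, with ratios of 1.42 (0.86 to 2.03) and 1.03 (0.63 to 1.44).

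The next genes up were smaller. Hist3h2a, a histone H2A gene, had ratios of 0.99 and 0.64 with RvD1 and vehicle, Gbp9, a guanylate-binding protein, 1.05 and 0.77, Hist1h1c 0.66 and 0.59, Zswim7 0.64 and 0.71, and Armc10 0.60 and 0.59. Klf2, which holds lymphocytes in a circulating naive state, had 0.69 and 0.26, with 676.7 and 522.1 CPM in recipient cells, against 419.2 and 437.2 CPM in donor cells. Cd55, a complement regulator of follicular B cells, had 0.79 and 0.41. No follicular gene of 11 passed 1.5-fold in both, and their medians were 0.26 and -0.08.

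Of the monocyte and macrophage markers, 2 of 5 described were lower in recipient cells, Lyz2 (-0.64 and -2.04) and Ly6c2. Among the lowest ranked genes, Chil3, Basp1 and Spp1, which macrophages and neutrophils express, had ratios of -4.57 and -5.07, -3.42 and -3.17, and -4.06 and -2.30 with RvD1 and vehicle. Itgam had -1.43 and -1.61 and Ly6c2 -1.36 and -4.50. The metallothionein gene Mt1 had -1.48 and -2.37, and Tmtc2 -2.12 and -1.50. Top2a, a topoisomerase of dividing cells, had -3.05 and -1.79, and -1.95 and -0.51 without the top cell of each library. Without cells carrying other lineages' UMIs, Chil3 had -1.60 and -3.18, Basp1 -1.62 and -1.11, Spp1 -4.21 and -0.62 and Ly6c2 0.83 and -2.13. In those cells 4 genes were 2-fold higher and 1 was 2-fold lower in both, in place of 2 and 20. The part of other cells in the remaining values was not tested.

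B-1 and memory-like genes were lower in 4 of 13 described, Anxa2, Cd9, Itgb1 and Vim, and higher in none. Their median ratios were -0.54 with RvD1 and -0.59 with vehicle, against 0.04 and -0.07 over all genes. Anxa2, a membrane-binding annexin, stood at 22.1 and 17.1 CPM in recipient B cells with RvD1 and vehicle, against 70.0 and 56.6 CPM in donor B cells, with ratios of -1.66 (-2.04 to -1.28) and -1.72 (-2.10 to -1.35). Vim, an intermediate filament gene, had -0.91 (-1.02 to -0.80) and -0.59 (-0.71 to -0.46). Cd9, a tetraspanin of marginal zone and B-1 cells, had -0.70 and -1.95. Without cells carrying other lineages' UMIs, Anxa2 had -1.98 and -0.75, Cd9 -0.68 and -0.92 and Itgb1 -0.97 and -0.66.

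The adhesion genes Cd44 and Itgb1 were the 2 of 17 homing genes that were lower in recipient cells under both treatments. Cd44, which binds hyaluronan, stood at 97.8 and 88.5 CPM in recipient B cells with RvD1 and vehicle, against 160.4 and 187.5 CPM in donor B cells. Its ratios were -0.71 and -1.08, and -0.77 and -0.33 without cells carrying other lineages' UMIs. Itgb1, the beta 1 integrin chain, had -0.82 and -0.63. Fcrl5, the 1 marginal zone gene of 7 past 1.5-fold in both, had -0.87 (-1.15 to -0.59) and -1.27 (-1.61 to -0.94).

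Of 18 NF-kB and survival genes, Bcl2a1b, Bcl2a1d and Traf1 were lower in recipient cells and none higher. Bcl2a1b had ratios of -1.04 (-1.28 to -0.80) with RvD1 and -1.25 (-1.55 to -0.96) with vehicle, and -1.24 and -0.66 without cells carrying other lineages' UMIs. Traf1, a signalling adaptor, had -0.95 and -0.64. Of 21 immediate early genes, Nr4a2 (-1.26 and -0.99), Myc (-1.13 and -0.89) and Egr1 (-1.27 and -0.68) were lower. Without cells carrying other lineages' UMIs, Myc had -1.13 and -0.78, whereas Nr4a2 had -0.16 and 0.16 and Egr1 -0.43 and 0.02. No MHC class II gene of 12 passed 1.5-fold in both, and H2-Oa, which restrains peptide loading, had 0.11 with RvD1 and 0.84 with vehicle.

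**Figure D5:**
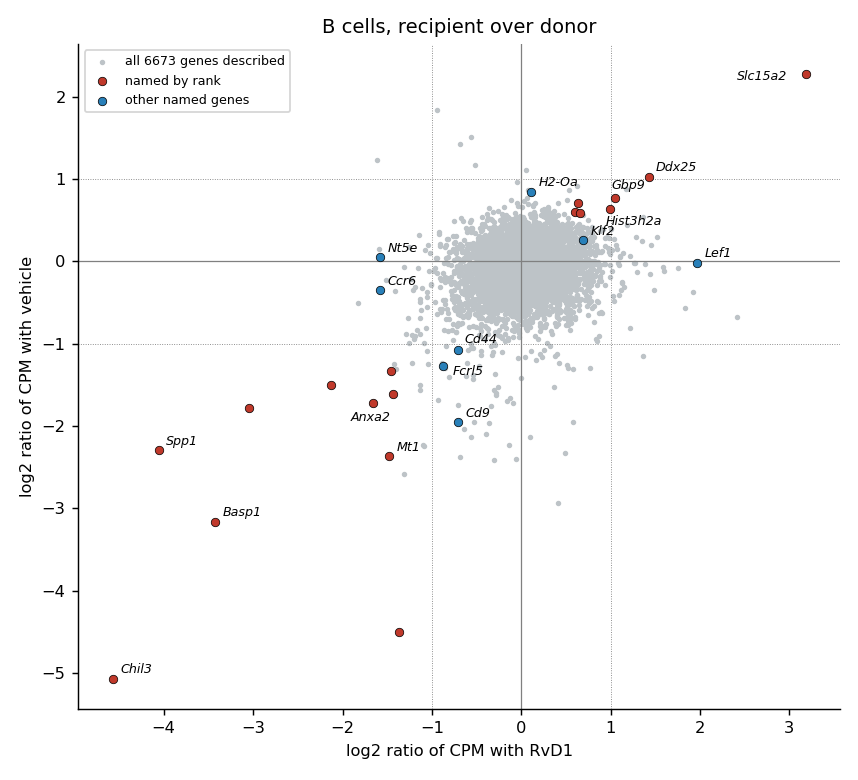
Log2 ratio of CPM, recipient over donor B cells, with RvD1 (horizontal) and vehicle (vertical) for 6673 genes. Grey points are all genes, red points the genes named by rank, blue points other named genes, and dotted lines mark 2-fold. Slc15a2 and Ddx25 lie in the upper right, Anxa2 and the myeloid genes Chil3, Basp1 and Spp1 in the lower left, and Lef1, Ccr6 and Nt5e lie off 0 with RvD1 and nearer 0 with vehicle.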

How the data were processed

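The deposited files are filtered matrices of UMI counts per gene and barcode, 1 for each library, with 32285 features. Per the labels' protocols the libraries were made with the Chromium 3' kit, v3, and per the file headers they were counted with Cell Ranger 7.0.1 (RvD1) or 6.1.1 (vehicle). The submitters' processing notes also name mm10 and Seurat 4.0.0. No source used here says whether intronic reads entered the counts.

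B cells, T cells and the cell classes were taken from the raw counts by the rules in the report, with no clustering. UMIs were summed per library and class. The Ighd comparison used edgeR 4.0.16 (R 4.3.3) with TMM scaling, its filter on low counts, the library as a block and Benjamini-Hochberg adjustment over all genes. On simulated counts for its 8226 genes it recovered 78.5% of the tested genes changed by 1 on the log2 scale and 100% of those changed by 2, and called 7 unchanged genes. Library ratios are log2 ratios of CPM with exact binomial 95% intervals, computed where both pairs had at least 100 UMIs; a count of 0 was replaced by 3. Named genes are the top 12 each way past the test with the same sign in all libraries (Ighd) or the top 10 each way by the smaller ratio, at 1.5-fold or more (ratios), without mitochondrial, ribosomal, haemoglobin, sex-linked, variable-segment and unnamed gene models; up to 5 members a list; and markers, constant regions and resolvin receptors. Genes set apart in the RvD1 donor library and other genes past the test were named after their values were seen. Some genes that the rule names are not reported here. Sequences and coordinates come from RefSeq (GRCm38.p6) and GENCODE (GRCm38). Members, the 28 gene lists and tests were chosen with earlier results of these data known. Doublets were called with Scrublet in scanpy 1.11.5. Alternatives were other gates, depths, normalization, filters, DESeq2 1.42.0 and leaving out each library, and, added after seeing the data, ratios without cells carrying other lineages' UMIs (any of Trac, Trbc1, Trbc2, Cd3g, Nkg7, Lyz2, Csf1r) and without each gene's top cell.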

Additional observations from a re-analysis of the deposited data

Results flagged for a closer look

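In 4 genes the library ratios pointed opposite ways by at least 2-fold in B cells, and the difference was not tested, since each group is 1 library. Cxcl2, a neutrophil-attracting chemokine, had a log2 ratio of RvD1 over vehicle of 1.09 in recipient cells (30.3 against 14.2 CPM) and -2.25 in donor cells (22.8 against 109 CPM). Clec4e, a pattern receptor of myeloid cells, had 1.02 in recipient cells (15.0 against 7.39 CPM) and -1.55 in donor cells (12.7 against 37.2 CPM). Cebpd, a myeloid transcription factor, had a ratio of recipient over donor of -1.61 with RvD1 (15.3 against 46.7 CPM) and 1.23 with vehicle (16.5 against 7.03 CPM). Hspa1a, an inducible heat shock chaperone, had a ratio of recipient over donor of 1.36 with RvD1 (27.3 against 10.7 CPM) and -1.15 with vehicle (17.7 against 39.3 CPM). The largest share of the UMIs held by 1 cell was 54.6% for Cxcl2 (RvD1 recipient library), 40.9% for Clec4e (vehicle donor library), 81.2% for Cebpd (vehicle recipient library) and 61.9% for Hspa1a (RvD1 donor library).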

How the results depend on the processing

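For the Ighd comparison, the 29 higher and 47 lower genes became 19 higher with DESeq2, 205 and 24 with no filter on low counts, 5 and 5 in cells of 2000 to 8000 UMIs, 53 and 76 for at least 2 Ighd UMIs against 0, 56 higher with a gate of 5 UMIs, 30 lower without cells carrying other lineages' UMIs, and 10 and 6 without immunoglobulin and ribosomal protein genes. Leaving out 1 library in turn gave 0 to 50 higher and 0 to 53 lower. No paired analysis was possible because each group has 1 library, as far as groups go. The Ighd comparison pairs the classes within each library, and with no library block there were 0 higher and 0 lower, and thinned to 1000 UMIs, which redraws the classes, also 0 and 0. Thinned, the fold changes of Ccl5 (-1.10), Fcer1g (-0.21), Cst3 (-0.50) and Tpt1 (0.0092) reversed, in cells of 2000 to 8000 UMIs those of Tyrobp (-0.0435) and Cst3 (-0.24), and without cells carrying other lineages' UMIs those of Lgals3 (-0.32) and Cst3 (-0.17); the cause was not tested. For RvD1 over vehicle, the 10 higher and 3 lower genes became 22 and 9 at a minimum of 50 UMIs, 16 and 1 centred on the median gene, 2 and 1 thinned to 1000 UMIs (980 genes), 1 lower by the mean of per-cell CPM and 0 lower without called doublets. For recipient over donor, the 2 higher and 20 lower became 4 and 48 at a minimum of 50 UMIs, 9 lower at 200 UMIs, 1 and 11 by per-cell means, 1 higher with a gate of 5 UMIs or in cells with Ighd, 12 lower without called doublets, 0 and 0 thinned, 4 and 1 without cells carrying other lineages' UMIs and 9 lower without each gene's top cell. B cell shares thinned to 1000 UMIs were 6.30% and 2.32% in RvD1 recipient and donor and 6.45% and 3.06% in vehicle recipient and donor cells. Ighd shares in the same order were 39.4%, 29.0%, 38.1% and 39.7% at 1000 UMIs and 60.8%, 45.8%, 58.7% and 60.2% at 2000 UMIs. Depth limits the ratios that use the RvD1 donor library, which has 252 B cells.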
